A study of Mus musculus with 6 samples.

Results

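The mitosis and cell division genes described here are a list of 42 genes that carry a cell through mitosis, from the CDK1 kinase to the furrow that parts the daughter cells. Each was followed through its brightest probe, by platform symbol, on all 6 arrays of mouse bone marrow cultures that were turning into dendritic cells (DC). Of the 42 genes, 40 had a named probe, and Ccnb1 and Mki67 are unnamed here. A probe was called detected where its detection p was under 0.01, and 30 of the 40 genes were detected on at least 1 array, out of 9913 such genes in the whole table. Of these 30, 24 were detected on all 6 arrays, and Ccnf, Cdc25b, Cdc25c, Cenpf, Tpx2 and Ect2 were detected on some. The other 10 genes (Ccna2, Ccnb2, Bub1, Ttk, Cenpe, Nuf2, Kif20a, Racgap1, Ube2c and Pttg1) were not well above background on any array, so these data say nothing of their course.

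Bone marrow cells of C57BL/6 mice were grown with 20 ng/ml GM-CSF, with either 1.5 mM SB202190 as the labels write it, a unit that could not be checked here, or 0.1% DMSO. SB202190 is an inhibitor of the stress kinase p38 MAPK, and DMSO is a common solvent for it. The 3 stages were pre-DC at day 2, immature DC collected as semi-adherent cells at day 7, and mature DC given 10 ng/ml TNF and 10 ng/ml IL-1β for a further 48 hours. Each stage and treatment had 1 array, the labels do not say whether the cultures were separate or whether the inhibitor stayed during maturation, and p-values therefore measure only the spread between these arrays.

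Entry into mitosis is driven by CDK1 with its cyclins, which the CDC25 phosphatases switch on, and by the Polo and Aurora kinases. Kinesin motors build the spindle, the kinetochore ties it to the chromosomes, the spindle checkpoint holds back CDC20 until every chromosome is attached, and separase then cuts cohesin, and cytokinesis follows. Most of these genes are transcribed late in the cell cycle through the cell cycle genes homology region (CHR) and CCAAT boxes of their promoters, while E2F sites mark genes that start earlier. GM-CSF drives myeloid progenitors of the marrow to divide before they differentiate, and DC that have matured are known to divide little.

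Promoter sequences are shown because these motifs are what many of the genes have in common outside the array values. RefSeq promoters of 300 bases (build GRCm38.p6, from 250 bases before to 50 after the gene start) were at hand for 25 of the 30 detected genes, with 28 promoters in all, since Bub3, Ect2 and Prc1 have a pair each that overlap. Cdc25c, Aurkb, Incenp, Tpx2 and Foxm1 had none in the table used. The motifs searched on both strands, with overlaps allowed, were CHR (TTTGAA or TTCGAA), the CCAAT box (CCAAT) and the E2F core (GGCGGGA). A CHR was present in 82.1% of the 28 promoters, against 19.2% of all 32851 promoters of the same length. CCAAT was present in 71.4%, against 37.4% of all promoters, and both together in 71.4%, against 7.52%. The E2F core stood in 32.1%, against 11.3% of all promoters. None of the 3 motifs was found in the windows of Mad2l1, Melk and Nusap1. A match is a description of letters and not evidence of a bound site. Printed here are the 150 bases before the start of Cdc20, Cdk1, Top2a, Kif11 and Mybl2. In mature DC minus pre-DC, Cdk1 had a log2 difference of -2.79, beside a median of -2.78 over the 24 mitosis genes detected on every array. The others were among the 8 largest falls. All but the Mybl2 sequence combine CHR and CCAAT, and the window of Mybl2 holds the E2F core alone. Each is written 5′ to 3′ on the strand of the gene, with CHR, CCAAT and E2F letters, read on either strand, in capitals.
Cdc20 chr4:118437344-118437493 (minus strand): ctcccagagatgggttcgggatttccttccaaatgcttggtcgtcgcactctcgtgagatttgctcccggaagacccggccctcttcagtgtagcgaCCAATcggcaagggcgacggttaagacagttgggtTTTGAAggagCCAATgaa
Cdk1 chr10:69352913-69353062 (minus strand): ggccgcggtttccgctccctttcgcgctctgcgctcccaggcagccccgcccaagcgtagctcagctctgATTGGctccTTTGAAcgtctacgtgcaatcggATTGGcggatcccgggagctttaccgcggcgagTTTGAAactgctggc
Top2a chr11:99024190-99024339 (minus strand): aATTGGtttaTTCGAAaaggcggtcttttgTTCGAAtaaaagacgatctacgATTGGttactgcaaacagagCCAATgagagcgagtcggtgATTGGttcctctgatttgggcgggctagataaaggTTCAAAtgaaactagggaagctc
Kif11 chr19:37376232-37376381 (plus strand): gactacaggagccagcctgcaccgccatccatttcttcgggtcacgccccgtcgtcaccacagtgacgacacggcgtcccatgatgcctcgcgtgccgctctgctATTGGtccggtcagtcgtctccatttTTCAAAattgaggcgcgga
Mybl2 chr2:163054485-163054634 (plus strand): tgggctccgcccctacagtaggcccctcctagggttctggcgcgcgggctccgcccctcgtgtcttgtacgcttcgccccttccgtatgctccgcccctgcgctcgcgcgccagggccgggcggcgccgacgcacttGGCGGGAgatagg

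In Cdc20 the CHR begins at position -18 from the start, between CCAAT boxes at -53 and -8. In the 20 promoters that held both motifs, the nearest CHR and CCAAT began a median of 21 bases apart, and 15 of the 20 (75%) lay within 40 bases. In all 2472 promoters of the table with both, the median was 61 bases and 36.4% lay within 40. CCAAT letters lay before the gene start in 38 of 39 matches, while CHR letters did so in 19 of 32.

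**Figure D1:**
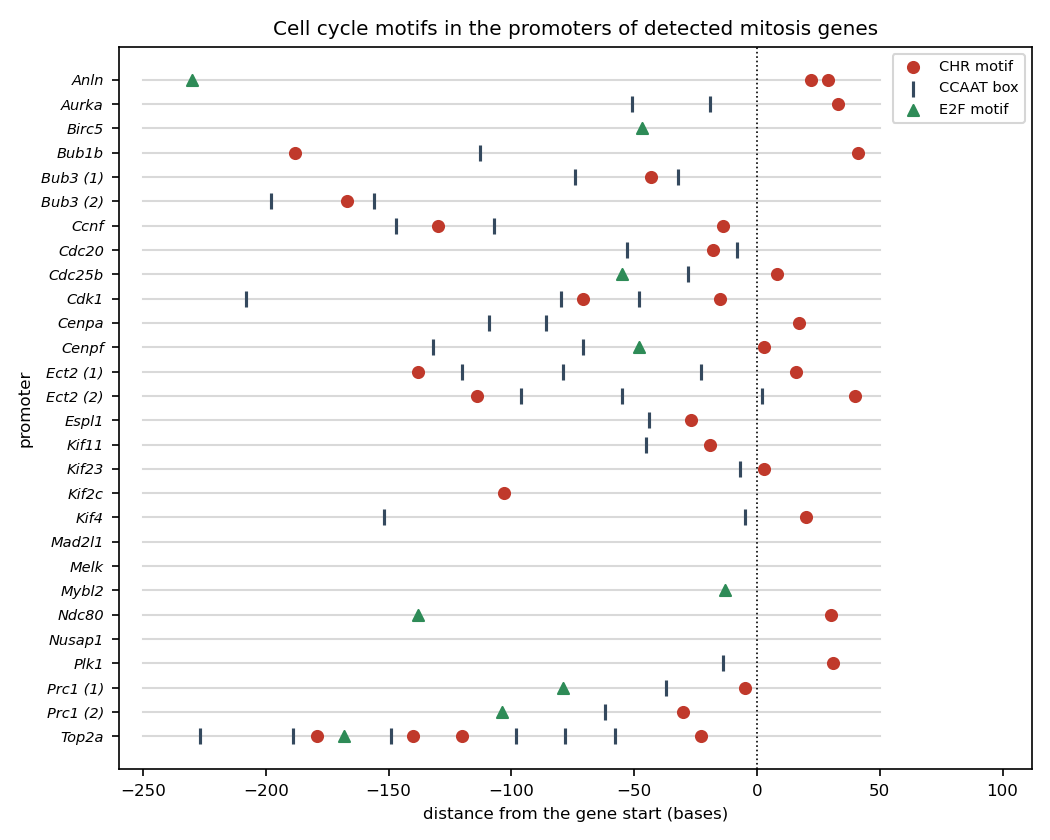
Positions of CHR (circles), CCAAT (bars) and E2F (triangles) letters in the 28 promoters of 25 detected genes, in bases from the gene start (dotted line). CCAAT marks sit almost all before the start, and the CHR circles lie on both sides of it.

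The arrays differed little in quality: their median raw intensity ran between 120.5 and 146.2, and each detected between 14623 and 15328 of 45281 probes. Labels were checked against markers of the cell types such a culture can hold, as sums of linear intensity over the list. DC markers (11 of 12 detected, Flt3 at background) summed to between 32829 and 43589 in pre-DC, between 90726 and 109151 in immature DC, and between 98518 and 117364 in mature DC. In mature DC minus immature DC, 4 of the 11 lay below 0, with a median log2 difference of 0.13. Neutrophil and granule markers (13 of 14 detected) summed to between 280059 and 295123 in pre-DC, between 46434 and 61085 in immature DC, and between 23543 and 24953 in mature DC. Progenitor markers (8 of 10 detected, with Flt3 and Hoxa9 at background) summed to between 7779 and 8101 in pre-DC, against 1719 to 2749 over the 4 later arrays. Of these 8, 6 lay below 0 in immature DC minus pre-DC, and 6 in mature DC minus pre-DC. Erythroid markers (5 of 11 detected) summed to between 2931 and 3518 in pre-DC, against 304 to 584 over the 4 later arrays. Single erythroid genes did not all follow this sum. Of the 3 tested, 1 lay below 0 in immature DC minus pre-DC, with a median log2 difference of 0.04. In mature DC minus pre-DC, 2 of the 3 lay below 0, with a median of -0.23. B cell markers (7 of 10) summed to between 2076 and 3793 in pre-DC, against 406 to 686 later. Mast cell and basophil markers (6 of 8) summed to between 4645 and 5485 in pre-DC, against 406 to 1114 later. Macrophage markers (9 of 10) summed to between 2851 and 2927 in pre-DC, between 25485 and 28436 in immature DC, and between 13623 and 15490 in mature DC. Plasmacytoid DC markers (5 of 7) summed to between 1686 and 2449 in pre-DC, between 2446 and 3503 in immature DC, and between 4188 and 6041 in mature DC. This list was split: 2 of the 5 lay below 0 in immature DC minus pre-DC, and 2 of the 5 in mature DC minus pre-DC. The pre-DC arrays thus gave high signal for granulocyte genes beside the DC markers. The part of cell composition in the falls described next was not tested, and in bulk RNA fewer dividing cells and less RNA per dividing cell cannot be told apart.

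**Figure D2:**
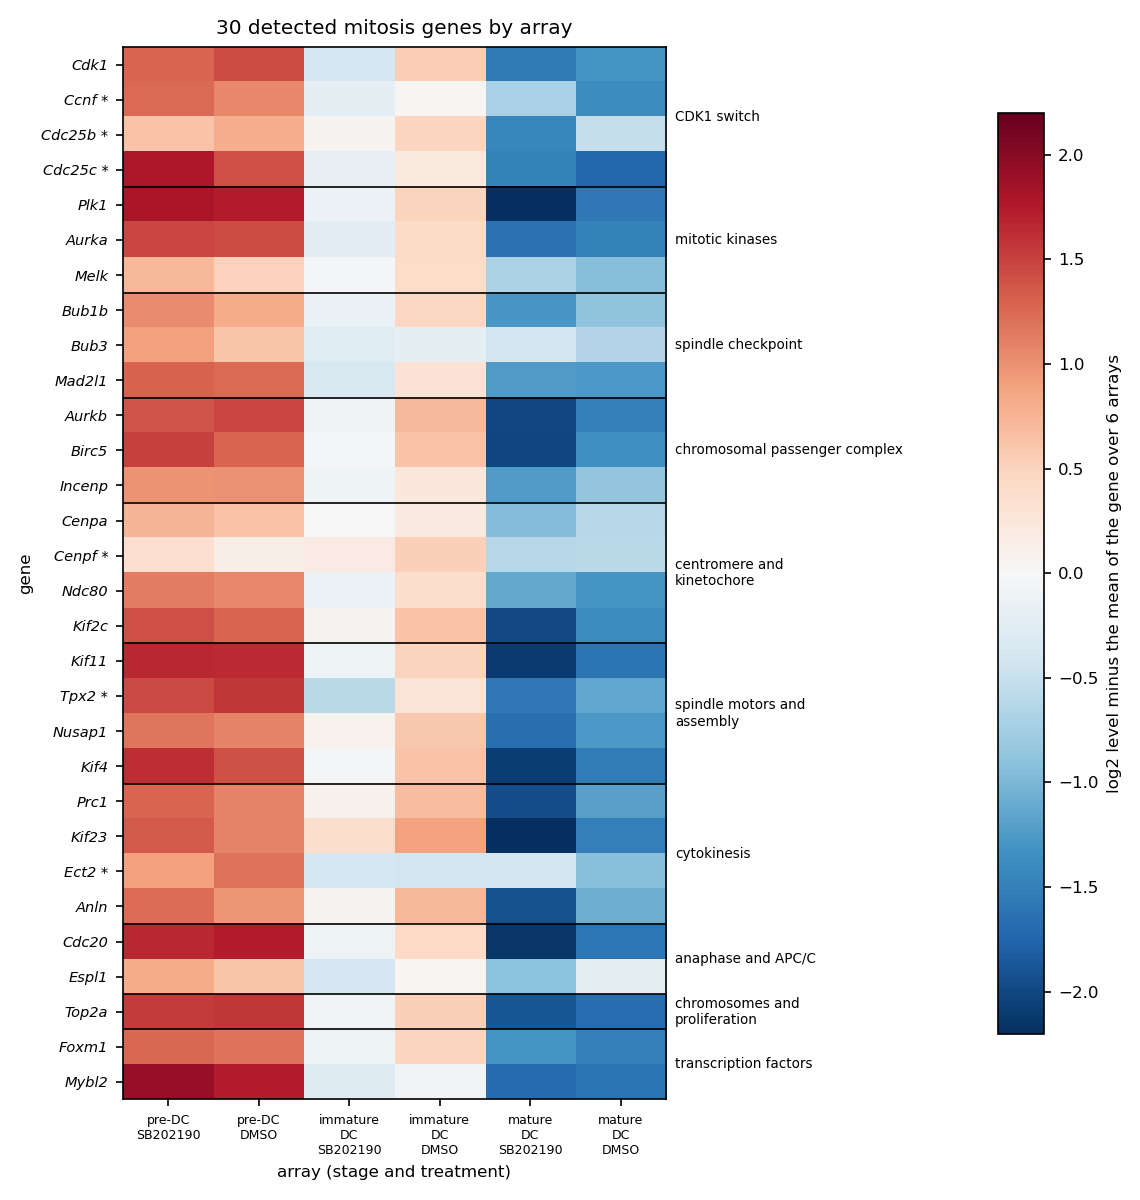
Levels of the 30 detected genes on the 6 arrays, each as log2 intensity minus the mean of the gene, grouped by role; an asterisk marks genes detected on some arrays only. In most rows the columns pass from red in pre-DC through pale in immature DC to blue in mature DC. Cenpf is highest in the DMSO column of immature DC, and Ect2 is below its mean in both immature columns. The SB202190 column of immature DC is paler or bluer than its DMSO column in every row but that of Ect2.

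The mitosis genes fell together as the cultures matured. Among the 24 genes detected on all 6 arrays, 24 were lower in mature DC than in pre-DC at an adjusted p under 0.05, with a median log2 difference of -2.78 and a range of -3.70 (Plk1) to -1.26 (Espl1). Of all 7446 genes detected on every array, 29.9% were called lower in that comparison, and of all 9221 genes tested 30.4% were lower and 30.8% higher. The first step, immature DC minus pre-DC, called 21 of the 24 lower with a median of -1.03, against 24.9% of the genes detected on every array, and 25.4% lower and 25.6% higher of all genes tested. The second step, mature DC minus immature DC, called 22 of the 24 lower with a median of -1.72, against 10.2% of the genes detected on every array, and 11.1% lower and 10.5% higher of all genes tested. All 24 stood lower at each step on the arrays of both treatments, as did 21.1% of the genes detected on every array. The medians over those genes were -0.0026 for the whole course, -0.0018 for the first step and -0.011 for the second. The counts of both steps fell when some single arrays, of either treatment, were left out, which leaves 1 array in a stage. Over all arrays left out in turn, the median of the first step ran between -1.31 and -0.81. That of the second step ran between -1.97 and -1.48. No array that was left out turned a sign, and the count for the whole course was 24 each time.

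**Figure D3:**
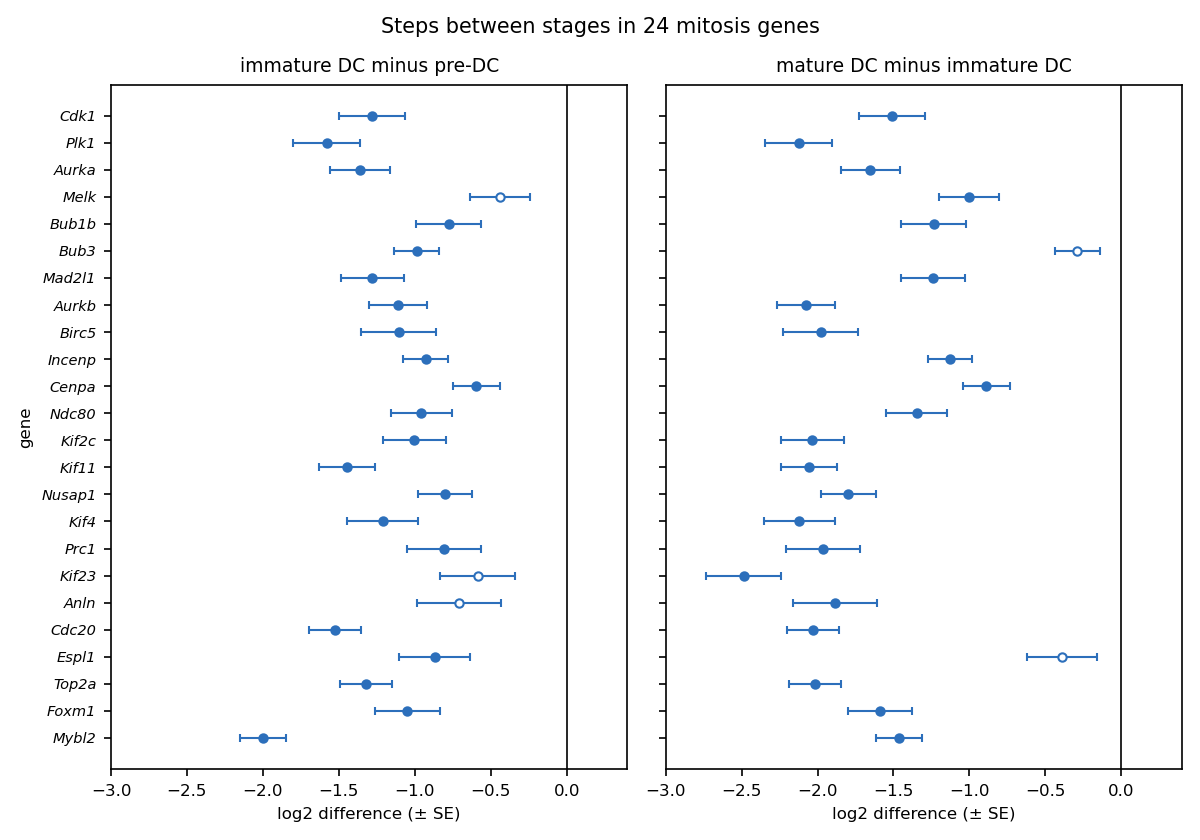
Log2 differences with standard errors for the 24 genes detected on all 6 arrays, for the step into the immature stage (left) and the step to maturity (right). Filled points passed an adjusted p of 0.05; Melk, Kif23 and Anln are open on the left and Bub3 and Espl1 on the right, and every point is below 0.

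Of the CDK1 switch, 4 of the 7 listed genes were detected. Cdk1, the kinase that starts mitosis, had log2 intensities of 10.78 with SB202190 and 10.93 with DMSO in pre-DC, 9.10 with SB202190 and 10.04 with DMSO in immature DC, and 7.94 with SB202190 and 8.19 with DMSO in mature DC. The stages did not overlap, and the gap between treatments was widest at the immature stage. Cdk1 was 2.43-fold lower in immature DC than in pre-DC (log2 difference -1.28, SE 0.21, adjusted p 0.00501) and 2.85-fold lower in mature DC than in immature DC (-1.51, SE 0.21, adjusted p 0.00884). Cdc25c, a phosphatase that activates CDK1, read 8.34 with SB202190 and 7.99 with DMSO in pre-DC, 6.38 with SB202190 and 6.78 with DMSO in immature DC, and 5.07 with SB202190 and 4.83 with DMSO in mature DC, and was not above background in mature DC. It was thus at least 6.31-fold lower in mature DC than in pre-DC (adjusted p 0.000148). Ccnf, which encodes an F-box protein of the cyclin family, read 7.39 with SB202190 and 7.20 with DMSO in pre-DC, 5.93 with SB202190 and 6.17 with DMSO in immature DC, and 5.44 with SB202190 and 4.76 with DMSO in mature DC, again with both mature arrays below background. Its level was at least 3.46-fold lower in mature DC than in pre-DC (adjusted p 0.000589). Cdc25b, another CDK activating phosphatase, read 7.00 with SB202190 and 7.18 with DMSO in pre-DC, 6.45 with SB202190 and 6.85 with DMSO in immature DC, and 4.95 with SB202190 and 5.86 with DMSO in mature DC, with the mature SB202190 array alone below background. It passed the test for the second step (log2 difference -1.25, SE 0.20, adjusted p 0.0118) and had -0.44 (SE 0.20, adjusted p 0.111) for the first.

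The 3 genes listed as mitotic kinases, Plk1, Aurka and Melk, were all detected on every array. The kinase genes Ttk and Bub1, listed with the spindle checkpoint, were not detected on any. Plk1, the Polo kinase that acts from mitotic entry to cytokinesis, had log2 intensities of 11.30 with SB202190 and 11.22 with DMSO in pre-DC, 9.36 with SB202190 and 9.99 with DMSO in immature DC, and 7.18 with SB202190 and 7.93 with DMSO in mature DC. It showed the widest spread between the ends of the course among the 24 genes, at 13.0-fold lower in mature DC than in pre-DC (log2 difference -3.70, SE 0.22, adjusted p 0.000128). Aurka, the centrosome and spindle pole kinase, read 10.47 with SB202190 and 10.44 with DMSO in pre-DC, 8.77 with SB202190 and 9.43 with DMSO in immature DC, and 7.38 with SB202190 and 7.51 with DMSO in mature DC. It fell by 1.36 on the log2 scale in the first step and by 1.65 in the second (adjusted p 0.00295 and 0.00527). Melk, a kinase enriched in dividing cells whose mitotic role is debated, read 7.31 with SB202190 and 7.08 with DMSO in pre-DC, 6.54 with SB202190 and 6.97 with DMSO in immature DC, and 5.87 with SB202190 and 5.64 with DMSO in mature DC. Its first step of -0.44 (SE 0.20, adjusted p 0.117) did not pass, and its second, with means of 5.75 in mature DC and 6.76 in immature DC, did (SE of the difference 0.20, adjusted p 0.0222).

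Among spindle checkpoint genes, 3 of 5 were detected. Bub1b, which encodes the checkpoint protein BUBR1, read 11.54 with SB202190 and 11.32 with DMSO in pre-DC, 10.35 with SB202190 and 10.95 with DMSO in immature DC, and 9.22 with SB202190 and 9.62 with DMSO in mature DC. Bub1b fell by 0.78 and then by 1.24 on the log2 scale (adjusted p 0.0275 and 0.0149). Mad2l1, whose product MAD2 binds CDC20, read 11.05 with SB202190 and 11.00 with DMSO in pre-DC, 9.41 with SB202190 and 10.08 with DMSO in immature DC, and 8.51 with SB202190 and 8.50 with DMSO in mature DC. Mad2l1 fell by 1.28 and then 1.24 (adjusted p 0.00453 and 0.0136). Bub3, the partner that brings BUB1 and BUBR1 to kinetochores, read 8.81 with SB202190 and 8.51 with DMSO in pre-DC, 7.64 with SB202190 and 7.71 with DMSO in immature DC, and 7.51 with SB202190 and 7.26 with DMSO in mature DC. Most of its fall lay in the first step (-0.99, SE 0.15, adjusted p 0.00344), while the second, at -0.29 (SE 0.15, adjusted p 0.216), did not pass.

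The chromosomal passenger complex, which corrects attachments and guides cytokinesis, was detected in full. Birc5, its survivin subunit, read 12.17 with SB202190 and 11.95 with DMSO in pre-DC, 10.61 with SB202190 and 11.29 with DMSO in immature DC, and 8.63 with SB202190 and 9.31 with DMSO in mature DC. Both steps passed, at -1.11 (SE 0.25, adjusted p 0.0138) and -1.98 (SE 0.25, adjusted p 0.00606). Aurkb, its kinase, read 10.15 with SB202190 and 10.24 with DMSO in pre-DC, 8.68 with SB202190 and 9.48 with DMSO in immature DC, and 6.76 with SB202190 and 7.25 with DMSO in mature DC, which amounts to 9.10-fold lower in mature DC than in pre-DC (adjusted p 0.000128). Incenp, its scaffold, was 4.16-fold lower across the same course (adjusted p 0.000184). The fall in Aurkb and Birc5 was larger in the second step, by the fitted values, although the difference between the steps was not tested.

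Centromere and kinetochore genes were detected in 4 of 6 cases. Cenpa, the histone H3 variant of centromeres, read 13.74 with SB202190 and 13.62 with DMSO in pre-DC, 12.99 with SB202190 and 13.18 with DMSO in immature DC, and 12.03 with SB202190 and 12.36 with DMSO in mature DC. Its steps were among the smaller of the group, at -0.59 and -0.89 (adjusted p 0.0226 and 0.015), yet the stages did not overlap. Ndc80, the microtubule-binding arm of the kinetochore, fell by 0.96 and by 1.35 (adjusted p 0.0109 and 0.00997). Kif2c, a kinesin that dismantles microtubules, fell in both steps (adjusted p 0.0104 and 0.00356) and was 8.22-fold lower in mature DC than in pre-DC. Cenpf, an outer kinetochore protein, was the 1 gene of the 30 whose fitted first step lay above 0: it read 5.61 with SB202190 and 5.40 with DMSO in pre-DC, 5.42 with SB202190 and 5.77 with DMSO in immature DC, and 4.61 with SB202190 and 4.65 with DMSO in mature DC, and was detected on 2 arrays only. Its immature DC minus pre-DC difference was 0.09 (SE 0.17, adjusted p 0.674). It was at least 1.07-fold lower in mature DC than in immature DC (adjusted p 0.0151), and no fold is given against pre-DC, where the bound was under 1.

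All 4 genes of spindle motors and assembly were detected. Nusap1, which bundles spindle microtubules, read 10.98 with SB202190 and 10.90 with DMSO in pre-DC, 9.88 with SB202190 and 10.40 with DMSO in immature DC, and 8.15 with SB202190 and 8.54 with DMSO in mature DC. It fell by 0.80 and by 1.80 (adjusted p 0.0135 and 0.00335). Kif11, the motor that pushes the spindle poles apart, read 9.68 with SB202190 and 9.65 with DMSO in pre-DC, 7.93 with SB202190 and 8.51 with DMSO in immature DC, and 5.92 with SB202190 and 6.41 with DMSO in mature DC, 11.3-fold lower in mature DC than in pre-DC (adjusted p 0.000101). Kif4, a chromosome-bound kinesin, was 10.1-fold lower by the same comparison (adjusted p 0.000178). Tpx2, which activates Aurora A at the spindle, read 7.98 with SB202190 and 8.09 with DMSO in pre-DC, 5.94 with SB202190 and 6.80 with DMSO in immature DC, and 4.95 with SB202190 and 5.38 with DMSO in mature DC. Both mature arrays of Tpx2 were below background, and it was at least 5.78-fold lower in mature DC than in pre-DC (adjusted p 0.00017).

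In cytokinesis, 4 of 6 genes were detected, and the median first step on DMSO arrays over the 3 detected on every array was -0.24, the smallest among the 10 role groups. Prc1, the bundler of the central spindle, read 12.46 with SB202190 and 12.28 with DMSO in pre-DC, 11.27 with SB202190 and 11.85 with DMSO in immature DC, and 9.22 with SB202190 and 9.98 with DMSO in mature DC. Prc1 fell by 0.81 in the first step (adjusted p 0.0358) and by 1.96 in the second (adjusted p 0.00589). Kif23, a motor subunit of centralspindlin, read 11.51 with SB202190 and 11.25 with DMSO in pre-DC, 10.54 with SB202190 and 11.05 with DMSO in immature DC, and 7.95 with SB202190 and 8.67 with DMSO in mature DC, so that the immature DMSO array stood near the pre-DC arrays. Its first step of -0.58 (SE 0.25, adjusted p 0.0965) did not pass, and its second, at -2.49 (SE 0.25, adjusted p 0.00335), was the most negative of the 24 genes. Anln, a scaffold of the contractile ring, read 10.85 with SB202190 and 10.58 with DMSO in pre-DC, 9.67 with SB202190 and 10.35 with DMSO in immature DC, and 7.71 with SB202190 and 8.54 with DMSO in mature DC. Anln was alike in missing the first step at -0.71 (SE 0.28, adjusted p 0.0799) and passing the second at -1.88 (SE 0.28, adjusted p 0.00965). Ect2, the exchange factor that turns on RhoA at the furrow, read 6.27 with SB202190 and 6.55 with DMSO in pre-DC, 4.97 with SB202190 and 4.96 with DMSO in immature DC, and 4.96 with SB202190 and 4.44 with DMSO in mature DC and was detected in pre-DC only. It was at least 1.94-fold lower in immature DC than in pre-DC (adjusted p 0.00304), and both later stages were below background. The contrast in timing between cytokinesis and the other groups was not tested.

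For anaphase, 2 of 4 genes were detected. Cdc20, the activator of the anaphase-promoting complex, had log2 intensities of 11.62 with SB202190 and 11.68 with DMSO in pre-DC, 9.85 with SB202190 and 10.39 with DMSO in immature DC, and 7.81 with SB202190 and 8.37 with DMSO in mature DC. It was 2.88-fold lower in immature DC than in pre-DC (adjusted p 0.00132) and 4.09-fold lower in mature DC than in immature DC (adjusted p 0.00245). Espl1, which encodes separase, read 8.52 with SB202190 and 8.31 with DMSO in pre-DC, 7.34 with SB202190 and 7.74 with DMSO in immature DC, and 6.79 with SB202190 and 7.51 with DMSO in mature DC. Espl1 fell by 0.87 in the first step (adjusted p 0.0244), and in the second, at -0.39 (SE 0.23, adjusted p 0.277), the mature DMSO array lay above the immature SB202190 array. Top2a, the topoisomerase that untangles sister chromosomes, read 11.12 with SB202190 and 11.14 with DMSO in pre-DC, 9.51 with SB202190 and 10.10 with DMSO in immature DC, and 7.68 with SB202190 and 7.89 with DMSO in mature DC. It was 10.1-fold lower in mature DC than in pre-DC (adjusted p 9.62e-05).

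Both transcription factors of the list were detected. Foxm1, a forkhead factor that drives late cell cycle genes, read 8.99 with SB202190 and 8.94 with DMSO in pre-DC, 7.63 with SB202190 and 8.21 with DMSO in immature DC, and 6.43 with SB202190 and 6.23 with DMSO in mature DC. It fell by 1.05 and by 1.59 (adjusted p 0.00961 and 0.00735). Mybl2, which encodes B-MYB of the MuvB complex, read 9.29 with SB202190 and 9.09 with DMSO in pre-DC, 7.08 with SB202190 and 7.31 with DMSO in immature DC, and 5.68 with SB202190 and 5.77 with DMSO in mature DC. It had the most negative first step of the 24 genes, at 3.99-fold lower in immature DC than in pre-DC (log2 difference -2.00, SE 0.15, adjusted p 0.000462). The second step was 2.76-fold (-1.47, SE 0.15, adjusted p 0.00363), and Mybl2 lay near the edge of detection in mature DC.

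**Figure D4:**
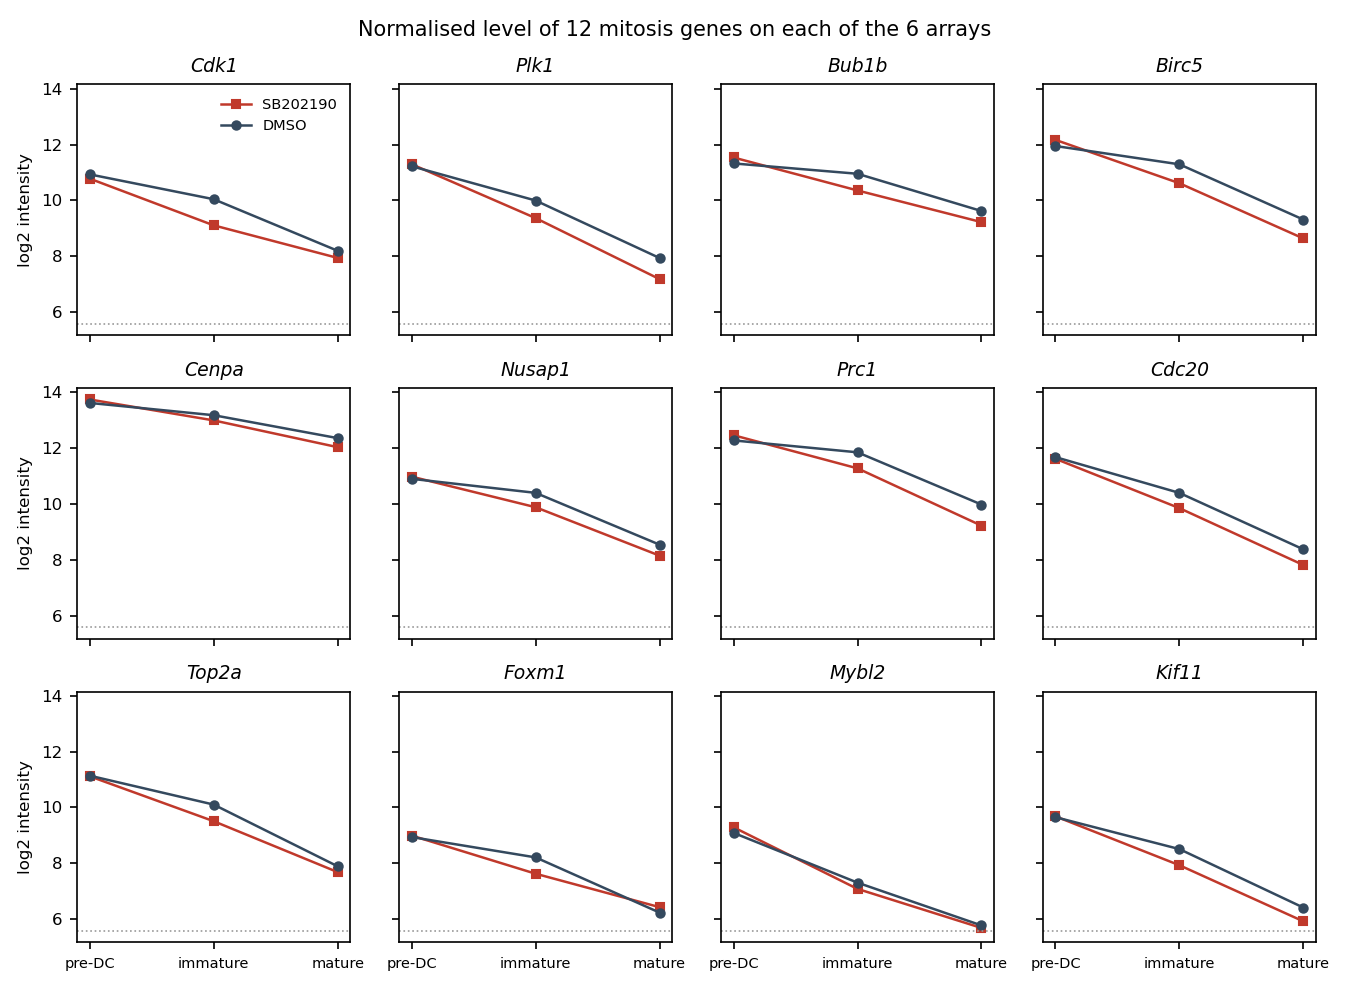
Log2 intensity of 12 mitosis genes at the 3 stages with SB202190 (squares) and DMSO (circles), 1 array a point; the dotted line is the highest of the 6 arrays' lowest detected signals. Levels descend at each stage on both treatments, and the SB202190 point of immature DC lies under the DMSO point in all 12.

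On these single arrays, the steps downward differed in size between the treatments. Both steps share the immature DC arrays, so a lower SB202190 array there enlarges the first step and shrinks the second. The contrasts of the steps are therefore not separate results. Of the 24 genes detected on every array, 21 were at least 2-fold lower in immature DC than in pre-DC on SB202190 arrays (9.9% of such genes), and 6 on DMSO arrays (7.33%). The second step gave 18 of 24 with SB202190 (4.54%) and 21 of 24 with DMSO (4.62%), and the whole course 24 with SB202190 (14.1%) and 23 with DMSO (13.2%). With the genes detected on 1 or both arrays of a comparison taken in, the first step gave 25 of 30 with SB202190 (11.5% of all such genes) and 10 of 30 with DMSO (9.3%). The second step then gave 20 of 28 with SB202190 (5.81%) and 25 of 29 with DMSO (5.88%), and the whole course 30 of 30 with SB202190 (15.9%) and 28 of 29 with DMSO (15.2%). Some of these wider counts rest on values below background, where the bound is under 2-fold: Ect2 in the first step with SB202190, Cdc25b and Cdc25c in the second step with SB202190, Ccnf and Cenpf in the second step with DMSO, and Cenpf and Ect2 over the whole course with SB202190. Over the 24 genes detected on every array, the median log2 difference of the first step was -1.36 with SB202190 and -0.74 with DMSO, and that of the second was -1.57 with SB202190 and -1.86 with DMSO. Cdk1 had a first step of -1.67 with SB202190 and -0.89 with DMSO, and a second of -1.17 with SB202190 and -1.85 with DMSO. The 10 genes of the first step with DMSO became 3 with no background correction, the 25 with SB202190 became 15 when all probes of a gene were averaged, and the 20 of the second step with SB202190 became 13 under either setting. With 1 array a side there is no test of these counts, and the 6 genes detected on some arrays entered them through the arrays where they were high.

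Across the 3 stages, SB202190 minus DMSO called no gene of 9221 lower and none higher (0% each way, limma), so 0 of the 30 mitosis genes passed; at an unadjusted p under 0.05 there were 5 of 30 (Cdk1, Cdc25b, Aurkb, Tpx2 and Cdc20), beside 854 genes (9.26% of all tested). The direction was mostly one way: 22 of the 24 genes detected on every array were below 0 (48.1% of all such genes), with a median of -0.29 and a range of -0.46 (Aurkb) to 0.15 (Bub3), against a median of 0.01 over all genes tested. Cdc25b had the smallest adjusted p of the group, at 0.498 with a log2 difference of -0.50 (SE 0.16). That value takes in -0.91 in mature DC, where the SB202190 array was below background and the bound was 1.22-fold. The value of Tpx2 takes in a mature pair with both arrays below background. Cdk1 averaged 9.27 with SB202190 and 9.72 with DMSO (log2 difference -0.45, SE 0.18, adjusted p 0.533, n = 3 arrays each). Above 0 lay Bub3, Ccnf at 0.21, Cdc25c at 0.06, Ect2 at 0.08 and Melk at 0.01, none of which passed, and of which Ccnf and Cdc25c lay below 0 with all probes averaged and Melk with no background correction. The values of Ccnf, Cdc25c and Ect2 take in pairs with both arrays below background, in mature DC and, for Ect2, in immature DC too, and Ect2 had -0.28 in pre-DC, the 1 stage where it was detected.

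Within the single stages, the treatment difference was not of one kind. In pre-DC, 5 of the 24 genes were below 0 (45.7% of genes detected on every array), a count of 3 with scaling to the 75th percentile and 6 with all probes averaged, and the median was 0.10. In immature DC, 24 of 24 were below 0 (48.3% of genes), and the median was -0.58. In mature DC, 19 of 24 were below 0 (51.2% of genes), and the median was -0.40. A difference of at least 1.5-fold lower was reached by 0 of 24 genes in pre-DC (1.2% of genes), 11 in immature DC (2.79%) and 6 in mature DC (3.6%). No fitted difference of a detected mitosis gene reached 2-fold at any stage. Among all genes detected on 1 or both arrays, 0.45% were at least 2-fold lower and 0.158% higher in pre-DC, 0.525% lower and 0.593% higher in immature DC, and 0.973% lower and 0.94% higher in mature DC.

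**Figure D5:**
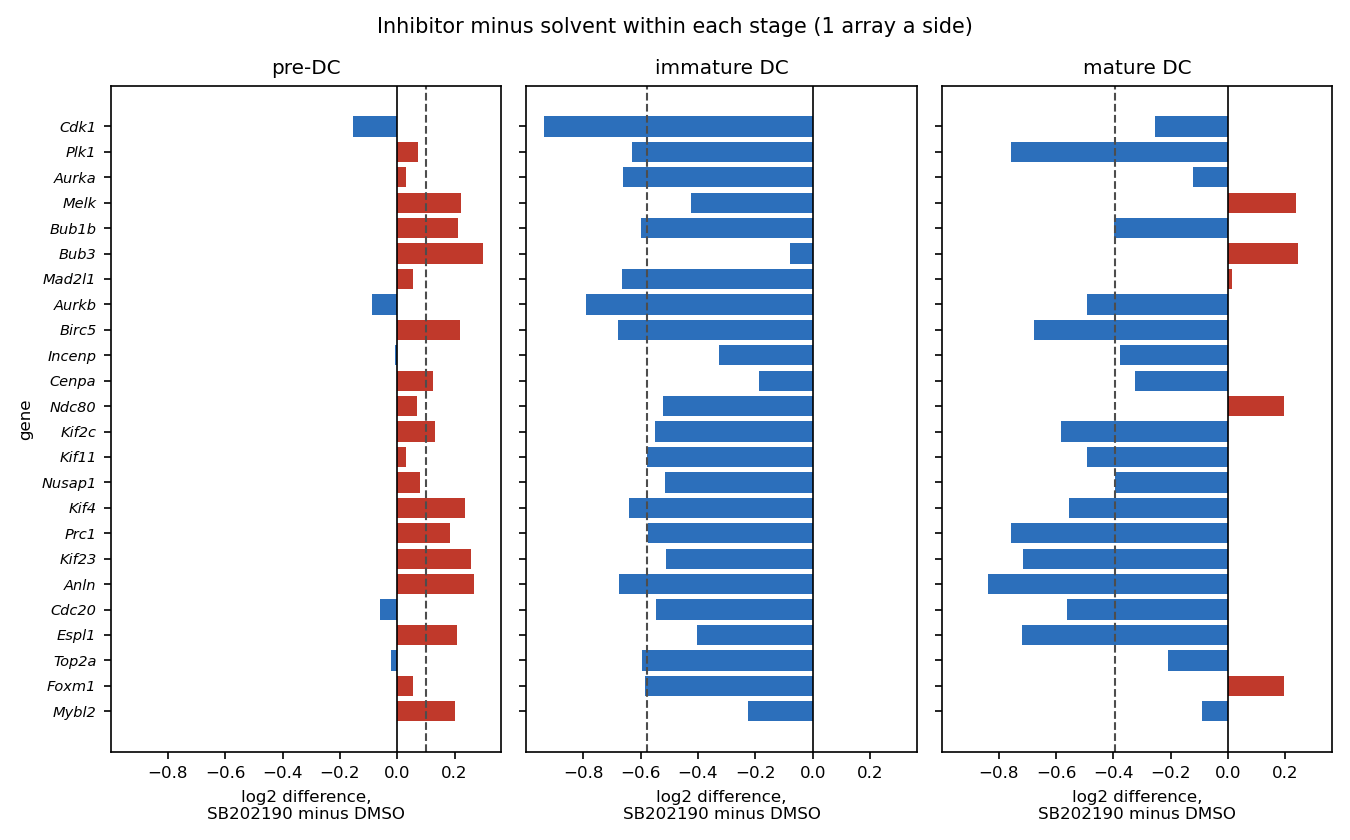
SB202190 minus DMSO on the log2 scale for the 24 genes detected on all 6 arrays, 1 array a side, in each stage; the dashed line is the median of the 24. Bars are short and mostly above 0 in pre-DC (median 0.10), all below 0 in immature DC (median -0.58), and mostly below 0 in mature DC (median -0.40).

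In immature DC the widest gaps were those of Cdk1 at -0.94, Tpx2 at -0.86, Aurkb at -0.79 and Birc5 at -0.68, and the narrowest was that of Bub3 at -0.08. In mature DC the order changed, with Anln at -0.84, Plk1 and Prc1 at -0.76, Espl1 at -0.72 and Kif23 at -0.71, while Cdk1 stood at -0.26. Bub3, Melk, Ndc80, Foxm1 and Mad2l1 were above 0 there, at 0.24, 0.24, 0.20, 0.19 and 0.02. Cdc25b, detected on the DMSO array only, was at least 1.22-fold lower with SB202190. By role, the median in mature DC was -0.76 for cytokinesis genes and 0.02 for spindle checkpoint genes, whereas in immature DC these groups had -0.57 and -0.60. A pre-DC difference above 0 with both later ones below 0 was seen in 14 of 24 genes, against 14.6% of genes detected on every array. The immature SB202190 array lay between the immature and the mature DMSO arrays in 23 of 24, against 23.3% of genes. That count is not separate from the values above. All 24 were lower with SB202190 in immature DC and fell on the DMSO arrays in the second step, while the 23.3% takes in genes of either direction. These are differences between single arrays, with no estimate of their error.

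Leaving out 1 stage at a time moved the treatment result. Without the pre-DC pair, 22 genes were called lower and 19 higher among all genes tested, none of them a mitosis gene. The mitosis genes then had a median of -0.52, with 23 of 24 below 0 (50% of genes detected on every array), 18 of the 30 detected at an unadjusted p under 0.05 (14.9% of all genes tested), and a smallest adjusted p of 0.0709 for Anln. Without the immature pair the median was -0.18, with 18 of 24 below 0 (48%) and 1 of 30 at an unadjusted p under 0.05 (4.23%). Without the mature pair it was -0.21, with 23 of 24 below 0 (45.8%) and 0 of 30 at that p (6.98%). No gene was called in either fit. A test chosen after these values were seen set the treatment difference of the later stages against that of pre-DC. It called 3 of 9221 genes and 0 of the 30, of which 9 had an unadjusted p under 0.05, beside 7.5% of all genes. The difference was below 0 in 24 of 24 (53.7% of genes detected on every array), with a median of -0.51 and a range of -1.02 (Anln) to -0.22, and the smallest adjusted p was 0.34, in a model with 1 residual degree of freedom.

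Markers of cell types were also unequal between the treatments. Neutrophil and granule markers in immature DC summed to 46434 with SB202190 and 61085 with DMSO, progenitor markers to 2338 with SB202190 and 2749 with DMSO, macrophage markers to 28436 with SB202190 and 25485 with DMSO, and DC markers to 109151 with SB202190 and 90726 with DMSO. In mature DC neutrophil and granule markers summed to 24953 with SB202190 and 23543 with DMSO, progenitor markers to 2508 with SB202190 and 1719 with DMSO, macrophage markers to 13623 with SB202190 and 15490 with DMSO, and DC markers to 117364 with SB202190 and 98518 with DMSO. Single progenitor markers did not all follow their sum: over the 8 tested the median of SB202190 minus DMSO on the log2 scale was 0.27 in immature DC, where the sum was lower with SB202190, and 0.42 in mature DC. Over the 13 neutrophil and granule markers tested, that median was -0.50 in immature DC. In mature DC it was -0.05, where their sum was higher with SB202190. Erythroid markers summed to 394 with SB202190 and 304 with DMSO in immature DC, and to 584 with SB202190 and 317 with DMSO in mature DC, and mast cell and basophil markers to 1114 with SB202190 and 762 with DMSO in immature DC, and to 565 with SB202190 and 406 with DMSO in mature DC. Plasmacytoid DC markers summed to 3503 with SB202190 and 2446 with DMSO in immature DC, and to 6041 with SB202190 and 4188 with DMSO in mature DC. B cell markers summed to 2076 with SB202190 and 3793 with DMSO in pre-DC, to 419 with SB202190 and 406 with DMSO in immature DC, and to 686 with SB202190 and 677 with DMSO in mature DC. The 30 mitosis genes summed to 24044 with SB202190 and 33210 with DMSO in immature DC, and to 9252 with SB202190 and 12102 with DMSO in mature DC. In pre-DC the sums were 55716 with SB202190 and 51573 with DMSO. The part of cell composition in the treatment differences was not tested.

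Further probes of the same genes were read on the same arrays. Of 39 such probes for detected genes, 22, from 14 genes, were detected on at least 1 array, and 21 of the 22 were lower in mature DC than in pre-DC. The exception was a Kif23 probe that stayed between 7.15 and 7.69 on all 6 arrays, unlike the brightest Kif23 probe. Only 9 of the 22 were detected on every array. The rest entered through arrays where they were high, so the filter itself favoured a lower value in mature DC for them. Of the 9 further probes detected on every array, 9 were lower with SB202190 than with DMSO in immature DC, 7 were lower in mature DC, and 6 were higher in pre-DC.

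Other genes of cell division followed the same course. From a list of 68 other mitosis genes, 51 were tested, of which 32 were detected on every array. At an adjusted p under 0.05, 49 were called lower in the first step (25.4% of all genes tested). The second step called 34 lower (11.1%) and the whole course 51 (30.4%). None was called higher, and the medians were -1.21, -1.27 and -2.43. Pbk, a mitotic kinase, had -3.90 and Sgo1, the shugoshin that protects centromeric cohesion, had -3.87 in mature DC minus pre-DC (adjusted p 7.82e-05 and 6.08e-05). Of 24 tested DNA replication genes, 18 were detected on every array. Against the same shares, 24, 16 and 24 were called lower and none higher, with medians of -1.49, -1.14 and -2.59. In both lists, genes detected on some arrays only entered through the arrays where they were high. Cdc45 of the replicative helicase had -2.41 in the first step (adjusted p 0.00121), and Tk1, the thymidine kinase of S phase, had -2.23 in the second (adjusted p 0.00254). The SB202190 minus DMSO medians of the other mitosis genes were 0.06 in pre-DC, -0.56 in immature DC and -0.15 in mature DC, and those of the replication genes 0.03, -0.49 and 0.13.

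Regulators upstream of mitosis were read against the 30.4% of all tested genes called lower and the 30.8% called higher in mature DC than in pre-DC. The falls and rises counted here are such calls, at an adjusted p under 0.05. Of 11 tested G1 cyclins and kinases, 9 fell and 1 rose in mature DC relative to pre-DC. Cdc25a, the phosphatase of S phase entry, had -3.12 (adjusted p 5.33e-05), and Ccnd1, cyclin D1, fell by 3.25 on the log2 scale in mature DC relative to immature DC (adjusted p 0.00335), while Ccnd2, cyclin D2, rose by 1.67 (adjusted p 0.00335). Of 13 tested genes of the E2F, pocket protein and MuvB families, 8 fell and 3 rose over the whole course, with Tfdp1, the E2F partner, at -2.46 and E2f2 at -2.39 (adjusted p 0.000126 and 0.000292). Of 14 CDK inhibitors and antiproliferative genes, 8 rose and 2 fell, with a median of 0.57. Cdkn2b, the CDK4 and CDK6 inhibitor p15, was below background in pre-DC and at least 19.8-fold higher in mature DC (adjusted p 7.32e-05). Cdkn1a, the inhibitor p21, rose by 1.66 in immature DC relative to pre-DC (adjusted p 0.000911), and Btg1, an antiproliferative factor, rose by 1.90 (adjusted p 0.000402).

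Within the group the profiles were close to each other. The Pearson correlation of each of the 24 genes with the mean profile of the detected genes, over 6 arrays, was 0.999 for Kif11 and 0.998 for Top2a and Aurka, and lowest for Bub3 at 0.894 and Espl1 at 0.910; the mean contains these genes, and all arrays share the stages. Outside the lists, the 10 most alike of 4126 genes were Parpbp, H2ac15, H2ac12, Capn10, Sapcd2, H2ac13, Rnf26, H2ac20, Kntc1 and Slc13a2, with correlations of 0.997 to 0.999. The H2ac genes encode near-identical histones, so their probes may read more than 1 gene. Parpbp read 8.50 with SB202190 and 8.36 with DMSO in pre-DC, 7.05 with SB202190 and 7.59 with DMSO in immature DC, and 5.93 with SB202190 and 6.14 with DMSO in mature DC. These correlations describe 6 arrays that differ mainly by stage, and no test was made.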

How the data were processed

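Raw intensity, per the file headers the average bead signal of a probe, was deposited for all 6 arrays, together with a detection p-value for each probe and array. The authors' processed intensity values, made by a method not given in the sources used here, were tried as an alternative. The raw values went through limma's neqc steps (limma 3.58.1, R 4.3.3): normexp with control levels inferred from the detection p-values, an offset of 16, quantile normalization, then log2. The number of arrays limits the precision. The platform annotation gave 1 symbol for 34885 probes, and the probe with the highest mean stood for its gene.

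Tests used the 9221 genes detected on at least 2 arrays, in an additive limma model of stage and treatment with 2 residual degrees of freedom and a prior of 3.73, with Benjamini-Hochberg adjustment over all of them and a threshold of 0.05. SB202190 minus DMSO had stage as a block, and steps between stages had treatment as a block. With 1 array a side, differences within a stage or treatment are values with no test. A gene below background on every array of a side has a bound: the brighter side is divided by the dimmest detected signal of the dim arrays, or by the dim probe itself if that was brighter.

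The list of 42 genes, the other lists, the tests and the rule for naming genes were chosen with earlier results of these data known, and the E2F motif was added after the promoters had been read. Genes named with values were the brightest detected gene of each role group, the 8 with the largest difference in each comparison and those that went against most. Levels are not compared between probes of different genes. Alternatives were no background correction, an offset of 50, scaling to the 75th percentile, the authors' processed values, the mean of all probes, other detection filters, trend and robust moderation, no block, and leaving out each array or stage.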

Additional observations from a re-analysis of the deposited data

Results flagged for a closer look

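The treatment difference of the mitosis genes went one way in pre-DC and the other way later. Over the 24 genes detected on every array, the median of SB202190 minus DMSO on the log2 scale was 0.10 in pre-DC, -0.58 in immature DC and -0.40 in mature DC. It was drawn to attention because these medians lie on opposite sides of 0. Of the 24 genes, 14 lay above 0 in pre-DC and below 0 at both later stages, against 14.6% of genes detected on every array. The difference between single stages was not tested, since each stage has 1 array a side. The later stages together against pre-DC were tested after these values were seen, and 0 of 30 mitosis genes passed, with a smallest adjusted p of 0.34.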

How the results depend on the processing

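The labels give no replicate numbers and each stage and treatment has 1 array, so cultures could not be paired by origin. The stage block of the treatment test pairs the SB202190 and DMSO arrays by stage only. Under other settings, 111 recomputed counts stayed within 1.5 times of the reported one and 10 did not. Counts that leave out 1 array ran between 11 and 23 for immature DC minus pre-DC (11 without the SB202190 array of immature DC), between 14 and 22 for mature DC minus immature DC (14 without the SB202190 array of mature DC), and stood at 24 for mature DC minus pre-DC and at 0 for SB202190 minus DMSO when the pair of any 1 stage was left out. At 2-fold, the 10 genes of the first step with DMSO became 3 with no background correction, 6 with an offset of 50, 5 when all probes of a gene were averaged, and 6 among genes detected on all 6 arrays. The 20 genes of the second step with SB202190 became 13 with no background correction and 13 with averaged probes, and the 25 of the first step with SB202190 became 15 with averaged probes. In mature DC, 1 gene (Cdc25b) differed by 2-fold between SB202190 and DMSO in the authors' processed values, against 0. Of single-gene values, 24 lost a call, 6 gained one and 13 changed sign, all of the last in treatment differences. With no background correction, the difference across stages was -0.00125 for Melk and 0.0038 for Mybl2. In pre-DC, scaling to the 75th percentile gave Top2a 0.00981 and Incenp 0.013. Averaging the probes gave -0.058 for Ccnf and -0.047 for Cdc25c across stages, 0.023 for Mybl2 in mature DC, and, in pre-DC, 0.082 for Top2a, 0.047 for Cdc25b, -0.013 for Ccnf, -0.29 for Mybl2, -0.038 for Cenpf and -0.00297 for Ndc80. Averaging takes in probes at background, and no background correction and a larger offset shrink every fold by construction; the cause of the other moves was not tested. No scaling moved the median of all genes by more than 0.1. With 1 array for each stage and treatment, a difference within a stage has no error, and signals near background give bounds or none.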
